A study of Populus davidiana with 6 samples.

Results

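In aspen leaves, 71 annotated genes lost at least 40% of their RNA level within about 10 min of drying the plant in open air, when the highest air-dried library is set against the lowest control library. They were chosen from 40537 genes in the deposited tables by their measured values. The transcript FPKM values of a gene (sequenced fragments relative to transcript length and library size) were summed, and genes with a POPTR identifier, at least 1 annotated transcript and a span of at least 500 bp were kept, which left 32745. Of these, 12961 had at least 5 FPKM in every control, and the 71 genes are those of the 12961 whose highest air-dried value was at most 0.6 times the lowest control value. They make up 0.548% of the 12961. Because the air-dried and control values made the choice, the differences between the groups in these genes are a description, with no test behind them.

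The leaves came from Populus davidiana, an aspen, cultivar Seogwang15, which the labels call drought-sensitive. The 3 air-dried samples are from plants of about 6 weeks that were taken out of sterile culture medium, rinsed in water and exposed to air for about 10 min, and the 3 control samples are from plants of the same cultivar and culture without that treatment. All plants were propagated from internodes on sucrose medium with the auxin naphthalene acetic acid. The labels do not say whether control plants were also lifted and rinsed, so handling and drying cannot be told apart, nor whether the samples of a group are separate plants.

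The level of a messenger RNA is set by the rate at which it is made and the rate at which it is degraded. When transcription of a gene stops, its RNA can disappear no faster than it is degraded. If the rate of degradation stays unchanged, large losses within minutes are then possible only for short-lived RNAs. Neither rate was measured here. In plants many short-lived RNAs encode regulators such as transcription factors and signalling proteins, and leaves that lose water respond within minutes by closing stomata and by signalling through calcium and abscisic acid. The name column of the tables is empty (0 names) and no annotation with functions was used, so the 71 genes are described by position and transcript structure, and leaf identity or the presence of other tissues could not be checked against marker genes. In whole leaves, fewer cells of a type and less RNA per cell cannot be told apart. Coordinates are those of the deposited tables, whose genome build is not given in the sources used here.

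The libraries were uneven. Transcripts listed above 10000 FPKM numbered 93 in air-dried 1 and 191 in control 1, against 13 and 18 in air-dried 2 and 3 and 12 and 16 in controls 2 and 3. In the 71 genes the log2 ratio of control 1 to the mean of controls 2 and 3 had a median of 0.06 and ranged from -0.84 to 1.23, beside a median of 0.04 in the other 12890 genes. Control 1 was the highest control in 36 of the 71, the lowest in 22 and between the others in 13. Air-dried 1 lay at a median of -0.08 from the mean of air-dried 2 and 3 on the log2(FPKM + 1) scale (range -1.48 to 0.79), beside -0.03 in the other genes. In 5 of the 71 genes control 1 exceeded 1.5 times the mean of controls 2 and 3. How often control 1 took these places in the other genes is not given here. The tables hold no read counts, so the depth behind each value is unknown.

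The genes had a median level of 7.55, 7.98 and 7.32 FPKM in air-dried 1, 2 and 3, against 21.8, 22.9 and 20.3 FPKM in controls 1, 2 and 3. The mean air-dried level was between 1.47% and 54.6% of the mean control level, with a median of 41.2%. In the other 12890 genes that median was 100.8%. A fall of the mean to at most 0.5 of the control mean was seen in 60 of the 71, and a fall to at most 0.25 in 11. By the definition of the genes, all 3 air-dried values lay below all 3 control values in each of the 71. The same arrangement was present in 17.4% of the 12961 genes. Losses of this size were less common than gains. The reverse selection, with all air-dried values at 5 FPKM or more and a highest control value of at most 0.6 times the lowest air-dried value, found 353 of 13453 genes (2.62%).

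**Figure D1:**
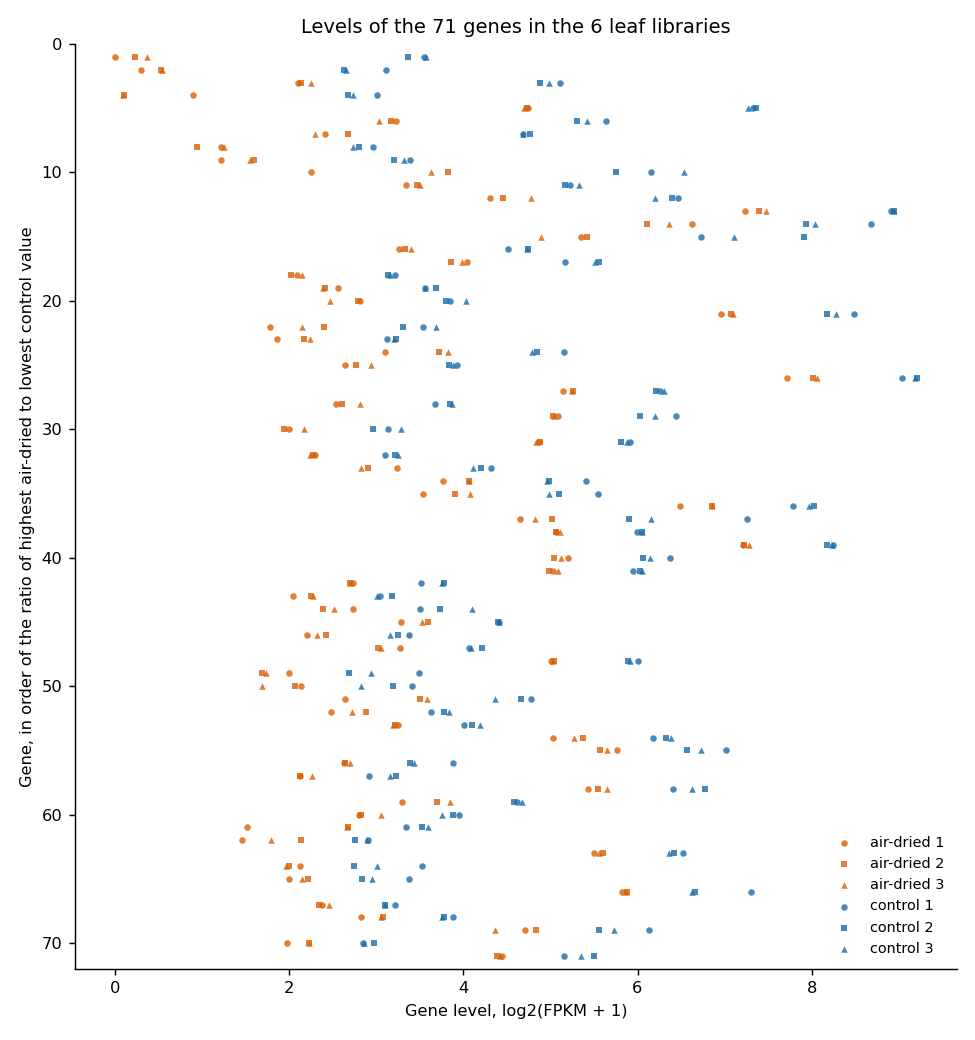
Level of each of the 71 genes, as log2(FPKM + 1), in air-dried 1 to 3 (orange) and controls 1 to 3 (blue). Each row is a gene, ordered from the smallest ratio of highest air-dried to lowest control value at the top. The orange and blue points of a row do not overlap, which the selection fixed, and the gap is widest in the upper rows, where the mean air-dried level reaches down to 1.47% of the mean control level.

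Most of the 71 genes lay close to the selection limit, and a few lay far from it. The ratio of highest air-dried to lowest control value was over 0.5 in 47 genes, over 0.25 and up to 0.5 in 14, and at most 0.25 in 10. The 3 genes nearest inside the limit had ratios of 0.597, 0.597 and 0.598, and the 3 nearest outside had 0.6001, 0.602 and 0.602. A further 97 genes had a ratio above 0.6 and at most 0.7, so the limit cuts through a continuous distribution. Of the genes just inside, that of chromosome 6 (24623394 to 24626113, minus strand) had 20.7, 19.9 and 20.4 FPKM in air-dried leaves, against 34.7, 44.1 and 39.7 FPKM in controls. The others inside lie on chromosome 17 (14343031 to 14343579, plus strand) and chromosome 15 (14985536 to 14991416, plus strand), at 43.2% and 53.3% of the control mean. The nearest gene outside, on chromosome 8 (1263535 to 1265356, minus strand), had 36.9, 35.3 and 36.1 FPKM in air-dried leaves, against 66.3, 61.4 and 66.2 FPKM in controls. Its groups were as clearly apart as those of genes inside the limit. The other 2 outside lie on an unplaced scaffold (7925 to 11343) and chromosome 5 (24170205 to 24171356), at 44.2% and 50.4% of the control mean.

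**Figure D2:**
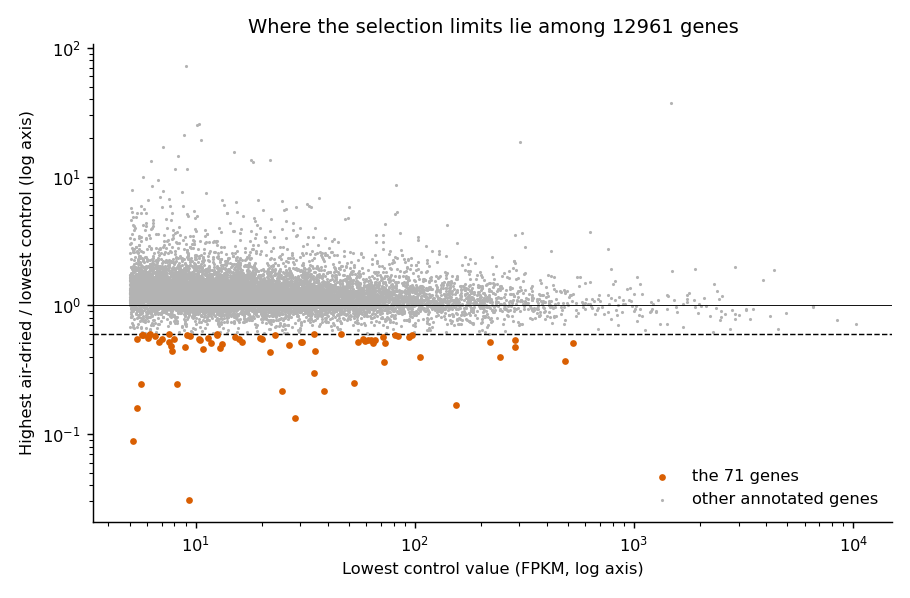
Ratio of the highest air-dried to the lowest control value (log axis) against the lowest control value in FPKM (log axis) for the 12961 annotated genes with at least 5 FPKM in every control. The 71 genes (orange) lie under the dashed line at 0.6, 47 of them at ratios over 0.5, and the other 12890 genes (grey) lie above it around a median ratio of 1.19.

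In 3 genes the RNA fell to under 1 FPKM in every air-dried library. The largest fall was in POPTR_0006s03590.r1 (chromosome 6, 2344287 to 2345590, plus strand). It was listed at 0, 0.170 and 0.284 FPKM in air-dried 1, 2 and 3, against 10.7, 9.31 and 10.9 FPKM in controls 1, 2 and 3. The air-dried mean was 1.47% of the control mean, and no air-dried value came near the control range. An exact 0 can be a failed estimate, and this was the only member with a value of exactly 0 (1 of 71). Both of its transcripts were lower: the annotated one averaged 0.151 FPKM in air-dried leaves and 6.72 FPKM in controls, and the one added by the assembly averaged 3.57 FPKM in controls and was listed at or near 0 in air-dried leaves.

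A chromosome 8 gene (9866336 to 9868873, plus strand), with 1 transcript, had 0.226, 0.442 and 0.456 FPKM in air-dried leaves, against 7.64, 5.17 and 5.31 FPKM in controls. Its values were low in all air-dried libraries, with a mean of 6.21% of the control mean and a coefficient of variation of 34.4%. Another gene of chromosome 8 (6151037 to 6152438, minus strand) had 0.853, 0.0749 and 0.0631 FPKM in air-dried leaves, against 7.01, 5.39 and 5.62 FPKM in controls. Here air-dried 1 was the highest of the 3 air-dried values, and the coefficient of variation within the air-dried group, 137%, was the highest of the 71 genes. These 3 genes had control levels of only 6.01 to 10.3 FPKM on average.

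Larger losses in absolute terms occurred in genes with higher control levels. A chromosome 6 gene (14032629 to 14037350, minus strand) had 3.27, 3.38 and 3.76 FPKM in air-dried leaves, against 33.6, 28.4 and 30.7 FPKM in controls, a mean of 11.2% of control. Of its 5 transcripts, 1 added by the assembly held 97.1% of the air-dried and 82.8% of the control level. A chromosome 9 gene (7134992 to 7138967, minus strand) had 25.9, 25.6 and 24.9 FPKM in air-dried leaves, against 159, 163 and 153 FPKM in controls. It combined a deep loss, to 16.0% of the control mean, with a narrow spread in both groups (coefficient of variation 2.1% in air-dried leaves and 3.0% in controls). Among all 32745 annotated genes kept, its rank by level was 4926, 4986 and 5133 in air-dried 1, 2 and 3, against 750, 613 and 670 in controls 1, 2 and 3.

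Neighbouring plus-strand genes of chromosome 2 were both among the 71, and no others of the 71 were adjacent. The upstream gene (22447102 to 22447777, 1 transcript) had 8.34, 7.98 and 7.18 FPKM in air-dried leaves, against 48.8, 38.6 and 41.9 FPKM in controls. The downstream gene (22451210 to 22452035, 3 transcripts) had 3.76, 13.1 and 11.4 FPKM in air-dried leaves, against 70.0, 52.9 and 91.4 FPKM in controls. Its annotated transcript was listed near 0 in all 6 libraries. Of its 3 transcripts, 1 added by the assembly held 86.0% of the air-dried and 88.4% of the control level. The coefficient of variation of the upstream gene was 7.57% in air-dried leaves and 12.1% in controls. In the downstream gene air-dried 1 was well below air-dried 2 and 3. The genes are 3432 bp apart, with 1 annotated model of under 500 bp between them that was listed at 0 in all 6 libraries. The next expressed gene downstream (22462877 to 22467225) had 68.6, 67.8 and 65.9 FPKM in air-dried leaves, against 63.3, 58.0 and 58.3 FPKM in controls, and so did not share the fall. The 3 nearest annotated genes upstream were listed at 0 in all libraries. Whether the neighbours are related in sequence was not analysed here.

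**Figure D3:**
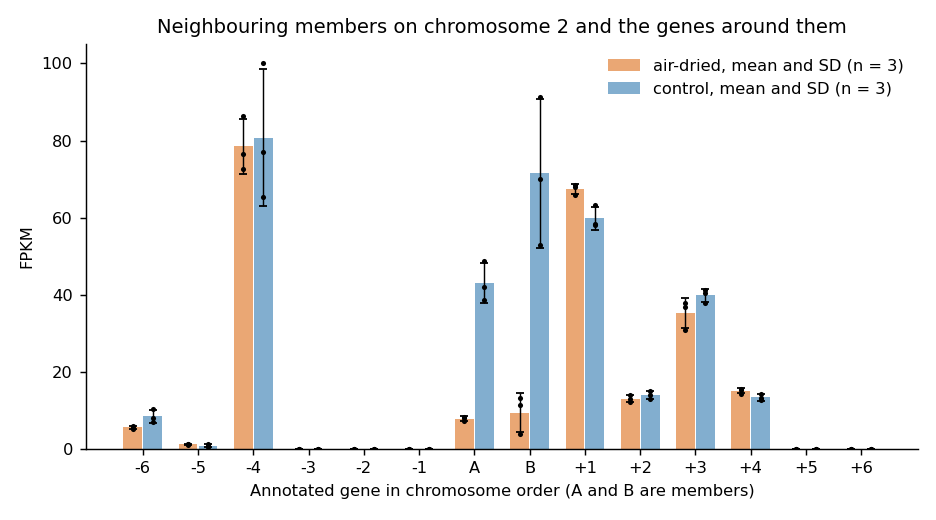
FPKM of the neighbouring members on chromosome 2 (A and B) and of the 6 annotated genes on each side, in chromosome order. Bars give the mean and error bars the SD of 3 air-dried (orange, left) or 3 control (blue, right) libraries, and dots are libraries. A averaged 7.83 FPKM in air-dried leaves and 43.1 FPKM in controls, B averaged 9.41 FPKM in air-dried leaves and 71.4 FPKM in controls, and the gene after B averaged 67.4 FPKM in air-dried leaves and 59.9 FPKM in controls. The annotated transcript of B was listed near 0 in all libraries, so the bars of B show transcripts added by the assembly.

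Among the other genes with small ratios, that of chromosome 11 (17448875 to 17451590, plus strand) had 9.15, 10.1 and 10.4 FPKM in air-dried leaves, against 36.3, 34.8 and 39.1 FPKM in controls. Another gene of chromosome 9 (3195489 to 3196380, minus strand) had 18.8, 20.9 and 26.4 FPKM in air-dried leaves, against 87.4, 83.2 and 72.6 FPKM in controls. Both kept the groups far apart, at 26.8% and 27.2% of the control mean. On chromosome 1, a minus-strand gene (19191969 to 19193818) had 1.32, 2.02 and 1.92 FPKM in air-dried leaves, against 9.42, 8.24 and 8.998 FPKM in controls.

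A minus-strand gene of an unplaced scaffold (7019 to 8312) had 1.32, 0.919 and 1.37 FPKM in air-dried leaves, against 6.80, 5.95 and 5.62 FPKM in controls. It overlaps a gene of the plus strand (6948 to 8103) that had 522, 311 and 299 FPKM in air-dried leaves, against 74.1, 226 and 178 FPKM in controls. The overlapping gene therefore moved the other way. Nothing in the labels says that strand was kept in the libraries. Fragments from either of these genes may thus be counted for the other, and the part of this overlap in the result was not tested. In all, 9 of the 71 genes overlap another locus of the tables, 7 of them a locus on the other strand, and 62 overlap none. The share of overlaps among all genes is not given here, so these counts are not read as a trait of the 71. Some of the loci on the other strand were on average lower in air-dried leaves like the gene they overlap, and more abundant than it. The chromosome 3 gene from 20190722 to 20192406 averaged 4.26 FPKM in air-dried leaves and 7.80 FPKM in controls. The locus opposite it (20191010 to 20203661) averaged 3933 FPKM in air-dried leaves and 6528 FPKM in controls. Its libraries had 10222, 791 and 786 FPKM in air-dried leaves, against 17364, 856 and 1364 FPKM in controls. Both means thus rest mainly on the replicate 1 libraries, and the groups overlap. Another chromosome 3 gene (4721161 to 4722749) lies opposite a locus (4720155 to 4724797) that averaged 54.5 FPKM in air-dried leaves and 88.7 FPKM in controls. Opposite the chromosome 19 gene from 10833057 to 10836255, a locus of 351 bp averaged 60.0 FPKM in air-dried leaves and 165 FPKM in controls. Its groups overlap too, with 94.8, 48.5 and 36.6 FPKM in air-dried leaves, against 331, 36.9 and 128 FPKM in controls. Opposite the chromosome 9 gene from 7603048 to 7618866, a locus of 434 bp averaged 17.6 FPKM in air-dried leaves and 43.5 FPKM in controls. The part of shared fragments in the values of these 4 genes was not tested either.

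The 8 genes with the highest control levels fell to between 16.0% and 50.7% of their control means. They begin with POPTR_0006s05130.r1 (chromosome 6, 3562513 to 3568243, minus strand), which has 6 transcripts. It had 209, 258 and 266 FPKM in air-dried leaves, against 524, 593 and 584 FPKM in controls, a mean of 43.1% of control. Air-dried 1 and control 1 were each the lowest of their group, and the groups stayed well apart. Next came a chromosome 3 gene (12057217 to 12062486, plus strand), with 149, 167 and 177 FPKM in air-dried leaves, against 482, 493 and 492 FPKM in controls. The controls agreed within a coefficient of variation of 1.2%, and the air-dried mean was 33.6% of theirs.

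Abundant genes with wider spread were also present. On chromosome 13, a plus-strand gene of 675 bp (14365033 to 14365707) had 97.6, 67.8 and 81.0 FPKM in air-dried leaves, against 410, 245 and 262 FPKM in controls. On chromosome 4, a plus-strand gene (7090678 to 7091481) had 39.9, 41.9 and 28.7 FPKM in air-dried leaves, against 105, 240 and 137 FPKM in controls. Control 1 was the highest control of the chromosome 13 gene and the lowest control of the chromosome 4 gene, so the control furthest from the others differs between them. The gene of chromosome 10 (10551687 to 10554183, plus strand) had 124, 134 and 135 FPKM in air-dried leaves, against 358, 288 and 309 FPKM in controls. That of chromosome 6 (895129 to 898354, plus strand) had 88.5, 114 and 115 FPKM in air-dried leaves, against 221, 260 and 250 FPKM in controls. An even fall was seen on chromosome 14 (12927717 to 12930120, minus strand), where 148, 148 and 154 FPKM in air-dried leaves stood against 302, 287 and 299 FPKM in controls, or 50.7% of the control mean. With quantile normalization 6 of these 8 genes missed the limma threshold (limma adjusted p = 0.071 to 0.34), and the log2 changes of the 8 were then -2.64 to -1.07.

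Ranks within a library do not depend on the scaling of that library. The median rank of the 71 genes among the 32745 annotated genes, with 1 as the highest level, was 11987, 11813 and 12331 in air-dried 1, 2 and 3, against 5781, 5247 and 5943 in controls 1, 2 and 3. Every rank in air-dried leaves was below every rank in controls in all 71 genes. Among the 1000 highest annotated genes of a library were 4, 5 and 5 of the 71 in air-dried 1, 2 and 3, against 10, 9 and 8 in controls 1, 2 and 3. The ranks rest on the values that chose the genes. That choice largely fixed their order between the groups, so the ranks are a description only.

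The spread within groups was modest in most of these genes, though in air-dried leaves its median was above that of the other genes. The median coefficient of variation was 11.3% in air-dried leaves and 8.46% in controls, beside 7.40% in air-dried leaves and 9.001% in controls for the other 12890 genes. All 3 air-dried values lay within 1.2 times of each other in 30 of the 71 genes, and all 3 controls in 38 (53.5%, beside 53.0% of the other genes). Air-dried 1 was the lowest of the air-dried libraries in 41 genes. The shares of other genes are not given for the air-dried counts, so nothing is read from them.

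To read the fall in libraries that took no part in the choice, the same limits were applied without both replicate 1 libraries. Replicates 2 and 3 alone gave 127 genes, which include the 71. In the left-out libraries, air-dried 1 lay below control 1 in 123 of the 127 (96.9%), beside 52.0% of the 13451 annotated genes with at least 5 FPKM in controls 2 and 3. The ratio of air-dried 1 to control 1 was at most 0.6 in 101 of the 127 (79.5%), beside 6.19% of the 13451 genes, and its median was 0.444 in the 127 genes and 0.987 in the 13451. Air-dried 1 was above control 1 in 3 genes with a control 1 value above 0. It was also above control 1 in 1 further gene, listed at 4.17 FPKM in air-dried 1 and 0 in control 1. With 1 library per group there is no test of this comparison.

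**Figure D4:**
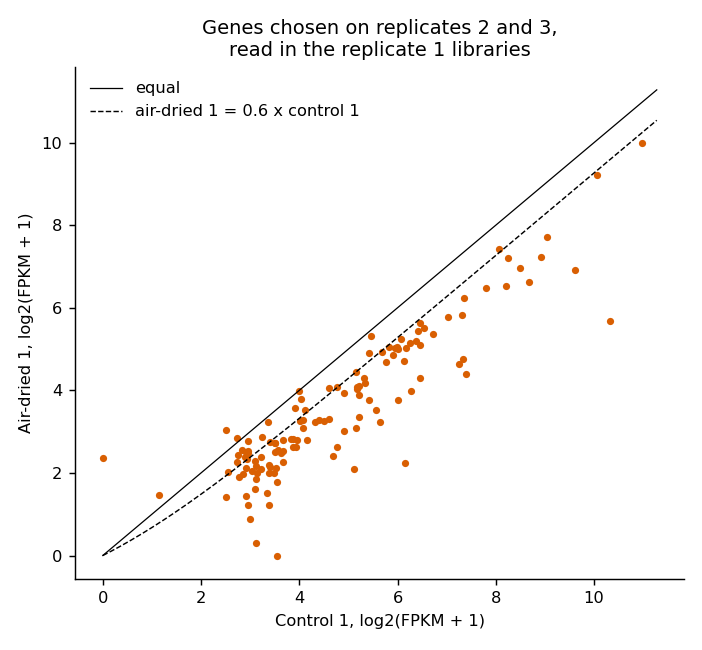
Level in air-dried 1 against control 1, both as log2(FPKM + 1), for the 127 genes chosen on replicates 2 and 3 only. The solid line marks equal levels and the dashed line an air-dried level of 0.6 times control. Of the 127 points, 123 lie below the solid line and 101 on or below the dashed one.

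Each library was also left out in turn. Without air-dried 1, 2 or 3 the limits chose 104, 88 and 81 genes, and the left-out air-dried value lay below all controls in 102, 88 and 81 of them, beside 34.3%, 28.7% and 28.0% of all genes considered. Without control 1, 2 or 3 they chose 89, 112 and 93 genes, and the left-out control lay above all air-dried values in 86, 108 and 91, beside 38.7%, 28.2% and 31.4%. The other libraries of these comparisons had still been used in the choice.

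The 71 genes hold 212 transcripts, of which 88 are annotated and 124 were added by the assembly. Transcripts with at least 1 FPKM in every control numbered 93, and in 82 of them all air-dried values lay below all control values, beside 18% of the 19272 such transcripts in the 12961 genes. The 82 consist of 53 of 59 annotated and 29 of 34 assembled transcripts, and the median air-dried level was 43.3% of control in the annotated and 39.7% in the assembled ones. Summed over the genes, annotated transcripts averaged 1300 FPKM in air-dried leaves and 3163 FPKM in controls, and assembled transcripts 461 FPKM in air-dried leaves and 1384 FPKM in controls. The choice of the genes by their sums, and a floor set in the controls only, largely fix these counts, and nothing is read from them.

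**Figure D5:**
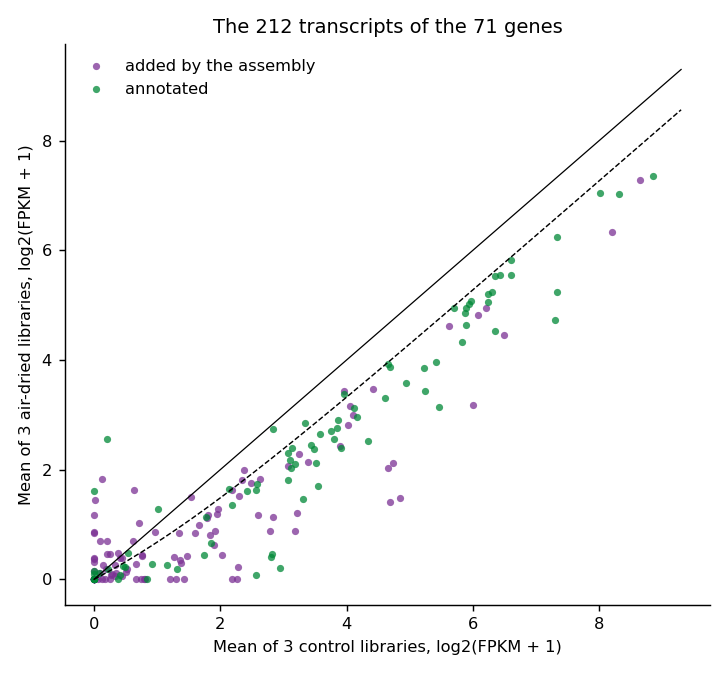
Mean level of each of the 212 transcripts in 3 air-dried libraries against its mean in 3 controls, both as log2(FPKM + 1). Green points are annotated transcripts and purple points were added by the assembly, with the solid line at equal levels and the dashed line at 0.6 times control. Transcripts of both kinds lie below the dashed line over the whole range of levels. The 43 with a higher mean in air-dried leaves have control means of at most 1.02 FPKM, and 8 of them average at least 1 FPKM in air-dried leaves.

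Annotated transcripts made up at least 90% of the control level in 39 of the 71 genes and under 50% in 22. In 11 of these 22 they made up under 10%. The 11 include the unplaced scaffold gene from 7019 to 8312 and the downstream gene of the chromosome 2 pair. They also include the chromosome 13 gene at 14365033 and the chromosome 5 gene at 18146076. In these named genes the annotated share was between near 0 and 3.51%, so their falls are those of assembled transcripts. The median share of annotated transcripts in the control level was 96.7% in the 71 genes, beside 72.4% in the other genes. When annotated transcripts alone were summed, 42 of the 71 met the limits. In a chromosome 18 gene (7081280 to 7083008, minus strand) the kinds of transcript differed. Its sum was 4.32, 5.36 and 3.90 FPKM in air-dried leaves, against 24.8, 26.2 and 24.7 FPKM in controls. The annotated transcript was listed at 4.32 FPKM in air-dried 1 and 3.06 FPKM in control 1 and near 0 in the other 4 libraries, so the assembled transcript carried 96.0% of the control level. The assembled transcript, which shares most of its span with the annotated one, was listed near 0 in air-dried 1, at 5.36 and 3.90 FPKM in air-dried 2 and 3, and at 21.7, 26.2 and 24.7 FPKM in controls.

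Among the 45 genes with several transcripts, 38 had the same main transcript in air-dried leaves and in controls. The share of the main control transcript had a median of 86.0% in air-dried leaves and 82.8% in controls, and it moved by under 25 percentage points in 40 of the 45. The other 7 genes had another main transcript. In a chromosome 9 gene (9490997 to 9495244, minus strand), which has 10 transcripts, an annotated transcript had 3.70, 1.68 and 0.825 FPKM in air-dried leaves and was listed at or near 0 in all controls. It held 54.2% of the air-dried level of a gene whose sum stood at 47.0% of control. This was 1 of 2 transcripts among the 212 that lay above every control and averaged at least 1 FPKM in air-dried leaves. The other, added by the assembly to a chromosome 8 gene (1958623 to 1964752, plus strand), had 2.63, 1.10 and 1.40 FPKM in air-dried leaves and at most 0.035 FPKM in controls. In the chromosome 9 gene all annotated transcripts together had 3.70, 3.83 and 3.70 FPKM in air-dried leaves. In controls their sums were 0.111, 6.54 and 1.96 FPKM, so the groups overlap and the annotated sum did not share the fall.

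The 71 genes had simpler and shorter models than the other 12890. Their median span was 2218 bp, beside 3722 bp, and their median number of transcripts 2, beside 3. A gene model with 1 transcript was found in 26 of the 71 (36.6%), beside 16.6% of the other genes. The share of genes that met the limits was 3.30% of 485 genes of 500 to 1000 bp, 0.999% of 1701 genes of 1000 to 2000 bp, 0.523% of 4971 genes of 2000 to 4000 bp, 0.237% of 4637 genes of 4000 to 8000 bp and 0.0857% of 1167 longer genes. The 353 genes of the reverse selection showed a decline with span too, from 11.4% in the shortest class to 0.401% at 4000 to 8000 bp and 0.423% in the longest. The relation to span was thus present in both selections, and it was not tested.

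By control level, 22 of the 71 genes lay at 5 to 10 FPKM in their lowest control, 13 at 10 to 20, 13 at 20 to 50, 15 at 50 to 100 and 8 at 100 FPKM or more. These are 0.626%, 0.330%, 0.390%, 1.28% and 0.798% of the genes at those levels. The median air-dried mean was 40.5%, 42.9%, 37.0%, 47.2% and 37.4% of control in these classes.

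The genes lay on all 19 chromosomes and, for 1 gene, on an unplaced scaffold, with 38 on the plus and 33 on the minus strand. Chromosomes 9 and 6 held 9 each (1.39% and 0.858% of their genes with at least 5 FPKM in every control) and chromosome 14 held 8 (1.18%), while chromosome 5 held 1 of 898 (0.111%). These shares were not tested. The nearest annotated genes on either side, 141 in all, included 84 with under 5 FPKM in a control. Of the 141, 26 were listed at 0 in every library and 50 had under 1 FPKM in every library. Of the 55 that reached 5 FPKM in every control and were not among the 71, 9 (16.4%) had all air-dried values below all controls, beside 17.4% of the 12961 genes. Their mean ratio of air-dried to control had a median of 1.01 and ranged from 0.382 to 1.45. The share with lower values among these neighbours was close to that of all genes.

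A limma fit over 22818 genes, with log2(FPKM + 1) values and Benjamini-Hochberg adjustment, called 69 of the 71 lower in air-dried leaves at an adjusted p under 0.05, beside 2.62% of all tested genes. Since the same contrast chose the genes, nothing is read from this count. The log2 changes of the 71 in that fit ranged from -3.30 to -0.74 with a median of -1.14, beside 0.03 over all tested genes. The 2 genes not called lie on chromosome 5 (18146076 to 18147023, plus strand), with 24.1, 31.3 and 27.3 FPKM in air-dried leaves, against 152, 59.0 and 70.5 FPKM in controls, and on chromosome 18 (11761812 to 11762816, plus strand), with 1.87, 5.37 and 5.31 FPKM in air-dried leaves, against 9.15, 10.5 and 11.0 FPKM in controls. In each of them a replicate 1 library lay apart from the rest of its group. Without both replicate 1 libraries limma called 71 of 71, beside 4.79% of the genes tested then. It called 44 of the 71 with a replicate block, 44 without air-dried 2 and 44 without air-dried 3. The genes called lower among all those tested numbered 598 with all libraries and 169 with the block. Omitting control 2 left 170 and control 3 left 134, while omitting air-dried 1 left 346, air-dried 2 left 98 and air-dried 3 left 103.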

How the data were processed

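Leaf RNA of 3 air-dried and 3 control samples was selected for poly(A) and sequenced in 100-base paired reads, as the labels' protocols state. The authors deposited FPKM per transcript, per the file headers, for 112919 transcripts shared by all 6 tables. TopHat, Cufflinks and FastQC are named in the submitters' processing notes, without versions. FPKM is scaled by transcript length and library, so no count test was used, and depth is unknown.

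FPKM were summed by gene, and the limits given in the report were applied. The values log2(FPKM + 1) were fitted in R 4.3.3, using limma 3.58.1, for genes averaging at least 1 FPKM, with a variance trend and no block. The pseudocount understates changes of low genes.

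The genes, the limits and the comparisons were chosen with earlier results of these data known. Described in full are the 12 genes with the smallest ratio, the 8 with the highest control mean, those at the limit and adjacent members, and only 2 identifiers are printed because no names were given. The genes not called by limma, those with differing transcripts and those with overlaps were singled out after their values were seen. Planned gene groups and promoter motifs could not be used without names or sequences.

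Alternatives were other limits, scalings, pseudocounts, filters, variance settings, annotated transcripts only, a replicate block and leaving out libraries. No 2 libraries were identical (0 pairs). P-values measure only the spread between samples that may be technical replicates.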

Additional observations from a re-analysis of the deposited data

How the results depend on the processing

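The number of genes meeting the limits was 24 at a ratio limit of 0.5, 168 at 0.7 and 127 without both replicate 1 libraries. Leaving out a library gave 81 to 112 genes, the most without control 2. Fewer libraries can only add genes, so the 71 are always included. A control floor of 2 or 10 FPKM, no span limit, annotated transcripts only and median-of-ratios scaling gave 49 to 103, within 1.5 times of 71. With annotated transcripts only, 42 of the 103 were among the 71. Limma called 44 to 68 of the 71 lower when a library was left out, with 44 for air-dried 2 and again 44 for air-dried 3. Over all tested genes it called 98 to 633, beside 598 with all libraries: omitting control 2 gave 170, control 3 gave 134, air-dried 1 gave 346, air-dried 2 gave 98 and air-dried 3 gave 103. All tested genes called lower numbered 1084 without both replicate 1 libraries and 396 with annotated transcripts only. With a replicate block, 44 of the 71 and 169 of all genes were called. The deviations from the group mean correlated between libraries of the same number at 0.0166, 0.0443 and 0.014. Such low values over all tested genes cannot decide whether the samples are paired. Both replicate 1 libraries held more transcripts above 10000 FPKM than any other library, and the labels do not say what the number marks. For the 22 genes described by rule, 35 of 327 alternative fits missed the threshold in the same direction, in 12 genes. The 327 lack a fit with annotated transcripts only for the unplaced scaffold gene from 7019 to 8312. They lack it also for the downstream gene of the chromosome 2 pair and the chromosome 15 gene at 14985536. The annotated transcripts of these genes averaged under 1 FPKM and were filtered out, so a fall in them could not be read. The chromosome 18 gene at 7081280 changed sign with annotated transcripts only (log2 change 0.13, limma adjusted p = 0.948), against -2.46 to -1.67 (limma adjusted p = 0.00038 to 0.020) in its other alternatives. Its annotated transcript is near 0 in 4 libraries. The cause of the other changes was not tested. Without read counts, the precision of low values is unknown.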
